A study of Mus musculus with 12 samples.

Results

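The genes followed here in mouse dorsal skin, 10 in all, build and remodel the matrix of a healing wound: Tnc, Postn, Fn1, Spp1, Thbs1, Cthrc1, Lox, Loxl2, Acta2 and Tgfb1. They were taken from the table by name and make up 10 of the 36400 genes in the table. All 10 were among the 21890 genes that were tested, those whose mean over the libraries reached 0.1 FPKM (fragments per kilobase of transcript, scaled to the mapped fragments of the library). The skin came from female BALB/c mice, 6 weeks old at purchase, in 4 groups of 3 mice with 1 library per mouse, all collected on day 30. Control mice (labelled Solvent) had their backs shaved and painted with vehicle, acetone and olive oil. DNCB mice were sensitized with 1% 2,4-dinitrochlorobenzene, a hapten that provokes contact allergy and dermatitis, and then challenged repeatedly with 0.5%. The scMSC mice had the same DNCB course and 4 doses of 2000000 human umbilical cord mesenchymal stem cells (MSCs) between days 13 and 25, each injected under the dorsal skin in 100 µL. The scivMSC mice had the same DNCB course and cell number, with the volume split between a 50 µL subcutaneous injection and a 50 µL tail vein injection. All groups were shaved before treatment. The MSC groups had no vehicle injection control among these libraries, and the donor cells were of another species than the host.

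When skin is injured, fibroblasts leave their resting state and lay down a provisional matrix. Transforming growth factor beta, released from latent stores in that matrix, drives part of them towards myofibroblasts, which contract the wound through bundles of smooth muscle actin. Fibronectin, tenascin-C, periostin, osteopontin and thrombospondin-1 are proteins of this early matrix that bind integrins and growth factors, and the lysyl oxidases crosslink the collagen that follows.

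Coordinates are on GRCm38, as the table gives them. Among the matricellular genes, Tnc (tenascin-C) runs on the minus strand at chr4:63959785-64020725 in the table, Postn (periostin) on the plus strand at chr3:54361109-54391037, Fn1 (fibronectin) on the minus strand at chr1:71585520-71653175 and Spp1 (osteopontin) on the plus strand at chr5:104435118-104441050. Thbs1 (thrombospondin-1) occupies chr2:118111876-118127133 and Cthrc1 (collagen triple helix repeat containing 1) chr15:39076932-39087121, both on the plus strand. Loxl2, a relative of Lox (lysyl oxidase), spans chr14:69609068-69695834 on the plus strand. Acta2 (smooth muscle alpha-actin) runs on the minus strand at chr19:34241090-34255590 and Tgfb1 (transforming growth factor beta 1) on the plus strand at chr7:25687002-25705077. In the GENCODE M21 annotation 6 of the genes, Tnc, Fn1, Spp1, Thbs1, Lox and Loxl2, overlap a non-coding or antisense transcript, so part of their reads could belong to that neighbour. The neighbour of Spp1, and 1 of the 3 of Loxl2, lies on the same strand, where strand-aware counting would not separate them. Postn, Cthrc1, Acta2 and Tgfb1 overlap no other gene.

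RefSeq promoter windows were held for 5 of the 10 genes. The 250 bases before a start site are shown for Spp1 and Tnc, which differed most from control together with Cthrc1, and for Postn, which differed less, each read 5′ to 3′ along the gene's strand. The windows lie at chr5:104434861-104435110 (plus strand), chr4:64047016-64047265 (minus strand) and chr3:54360857-54361106 (plus strand), in GRCm38.p6. Capitals mark TATAAA, the Runx element TGTGGT (read as ACCACA on the other strand) and the Smad element CAGAC (read as GTCTG).
Spp1: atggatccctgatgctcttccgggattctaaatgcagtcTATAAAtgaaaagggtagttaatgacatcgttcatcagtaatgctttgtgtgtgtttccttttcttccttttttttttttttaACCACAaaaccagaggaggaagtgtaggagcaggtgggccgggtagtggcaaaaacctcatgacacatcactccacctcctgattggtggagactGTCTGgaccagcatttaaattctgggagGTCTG
Tnc: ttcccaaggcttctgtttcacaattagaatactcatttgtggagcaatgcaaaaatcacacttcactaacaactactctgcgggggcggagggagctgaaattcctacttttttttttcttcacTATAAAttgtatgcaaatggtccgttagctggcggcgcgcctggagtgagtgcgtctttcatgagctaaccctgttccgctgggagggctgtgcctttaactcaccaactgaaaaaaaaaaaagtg
Postn: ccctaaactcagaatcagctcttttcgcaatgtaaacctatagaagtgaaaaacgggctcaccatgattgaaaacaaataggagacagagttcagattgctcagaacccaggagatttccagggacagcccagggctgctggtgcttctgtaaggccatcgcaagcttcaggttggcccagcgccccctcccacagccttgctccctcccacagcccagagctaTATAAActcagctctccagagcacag
For Acta2, whose activation by serum response factor through CArG boxes is well known, the pair of near-matches to that box is shown in capitals with flanking bases, at chr19:34255438-34255467 and chr19:34255388-34255417 on the minus strand.
Acta2 box 1: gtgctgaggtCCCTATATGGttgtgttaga
Acta2 box 2: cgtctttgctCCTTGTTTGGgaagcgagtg

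In these windows TATAAA stood at −26 to −21 from the Postn start (−1 is the last base before it), at −126 to −121 from the Tnc start and at −211 to −206 from the Spp1 start. The Spp1 window also held the Runx element at −128 to −123 and the Smad element at −33 to −29 and at −5 to −1. The Acta2 boxes, at −84 to −75 and −34 to −25 from the RefSeq start, each have 1 G or C among the 6 bases between CC and GG. Boxes with at most 1 G or C inside were found in 8.59% of all 32851 promoter windows of the table, a share that includes the 1.47% with a box without G or C inside. TATAAA was in 12.4% of windows, TGTGGT in 14% and CAGAC in 42.2%, counting both strands, so CAGAC is a common match and each match is a description of letters only. No window of the 5 genes held the AP-1 element TGANTCA, which was in 6.75% of windows. The Tnc start used here lies 26290 bases upstream of the gene's start in the table, and the windows of Postn and Spp1 end within 10 bases of theirs. The RefSeq start of Acta2 lies 217 bases inside the gene as the table gives it, so both boxes fall within that span. RefSeq windows of further starts exist for Tnc, Postn and Spp1. They held CAGAC or its reverse complement at −70 to −66 from the other Tnc start, at −191 to −187 from the other Postn start and at −41 to −37 from the other Spp1 start, and TATAAA at −205 to −200 from the other Tnc start, the same bases as in the window shown.

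The labelled tissue was checked against cell type markers, each list given as its summed FPKM. Keratinocyte markers summed to between 5161 and 20530 in every library and resting fibroblast markers to between 394 and 2807, so both compartments of skin were present throughout. The sums of several lists differed between the groups. Resting fibroblast markers (11 genes, none at 0) summed to 2469 to 2807 in DNCB and 936.5 to 1268 in control, with 4 of 11 called higher, 1 lower and 6 not called. The higher ones were Col1a1, Col3a1, Col1a2 and Pdgfra (log2 fold changes of 3.53, 3.16, 2.81 and 1.72) and the lower one Gsn (−1.23). The 6 not called were Lum, Mfap5, Dcn, Dpt, Cd34 and Clec3b (1.75, 0.86, 0.58, 0.04, −0.31 and −0.90). Col1a1, Col3a1 and Col1a2 averaged 260.9, 282.6 and 145.3 FPKM over the 12 libraries, so the sum is in part a collagen sum. Macrophage and monocyte markers summed to 982 to 1049 in DNCB and 229 to 876 in control, with 1 of 11, Cd14, called higher. Endothelial markers summed to 71.4 to 86.6 in DNCB and 39.3 to 56.7 in control, with 1 of 8 called higher than in control, 5 than in scMSC and 2 than in scivMSC. Mitosis markers summed to 69.4 to 92.3 in DNCB and 10.8 to 23.3 in control, with 8 of 8 called higher, and none was called against either MSC group (edgeR). Neutrophil markers summed to 2499 to 3451 in DNCB and 122 to 209.6 in control, with Ly6g at 0 in all libraries of the other 3 groups. Of the 10 tested, 8 were called higher than in control, Mpo was called lower (log2 fold change −2.41) and 1 was not called. S100a8 and S100a9, which averaged 254.5 and 534.8 FPKM over the 12 libraries, made up most of the neutrophil sum. Both are also in the stressed keratinocyte list. Skeletal muscle markers summed to 4492 to 6165 in DNCB and 16210 to 22980 in control. Hair shaft and inner root sheath markers reached 7665 to 21930 in scMSC and 2768 to 6887 in scivMSC, with 308.6 to 988.5 in DNCB and 5.28 to 351.6 in control. Single libraries stood apart in some lists. One was scivMSC replicate 3, with fibroblast markers at 394.2 against 1663 and 1740 in its group mates and macrophage markers at 55.6 against 366.1 and 467.1. Macrophage markers in control replicate 3 were at 875.8 against 229.1 and 247.8, hair markers in control replicate 2 at 351.6 against 13.3 and 5.28, and stressed keratinocyte markers in scivMSC replicate 2 at 5006 against 1284 and 1262. In such bulk samples fewer cells of a type and less RNA per cell cannot be told apart.

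All 10 genes were higher in every DNCB library than in every control library, and 9 of the 10 were called higher. Among all genes tested, 31.7% had every DNCB library above every control library and 6.59% were called higher in DNCB. The median log2 fold change of the 10 genes was 2.10, beside 0.02 over all genes tested. Fn1 alone was not called. A positive log2 fold change means higher in the first-named group throughout, and a gene was called at an adjusted p below 0.05 (edgeR's quasi-likelihood test, Benjamini-Hochberg) and a change beyond 1 on the log2 scale.

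**Figure D1:**
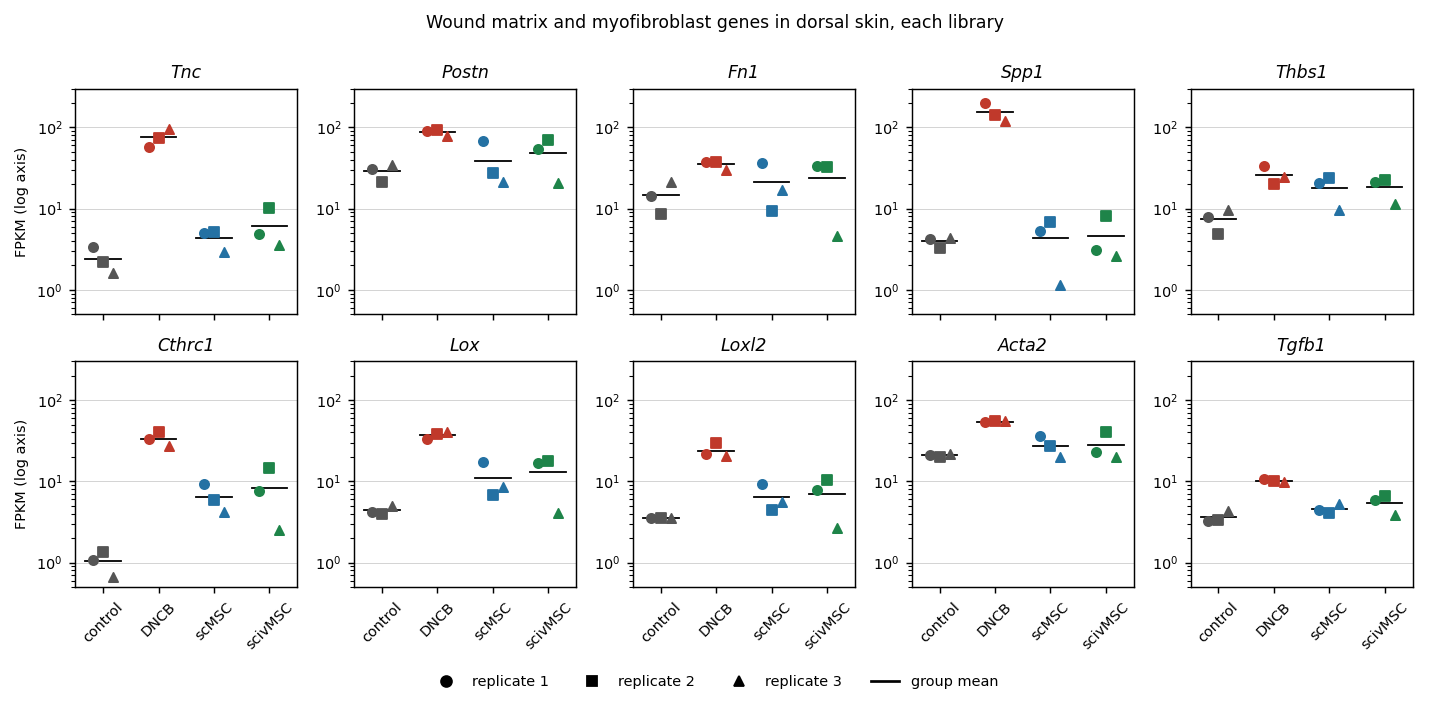
FPKM of the 10 genes in each of the 12 libraries, on a log axis, with 1 panel per gene, colours for groups, symbols for replicates and a line for each group mean. All 3 DNCB libraries sit above all 3 control libraries in each panel, and scivMSC replicate 3 is the lowest of its group in all 10.

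The matricellular genes Spp1, Tnc and Cthrc1 differed most. Spp1, which encodes osteopontin, a secreted integrin and CD44 ligand made by macrophages and wound fibroblasts, stood at 4.21, 3.29 and 4.36 FPKM in the control libraries and at 196.9, 143.4 and 119.3 FPKM in the DNCB libraries. The groups were far apart, with the lowest DNCB library well over the highest control. The log2 fold change was 5.09 ± 0.66 (SE, n = 3 per group, edgeR adjusted p = 0.000857), or 34.1-fold. Tnc, which encodes tenascin-C, a matrix protein nearly absent from resting adult dermis and laid down at wound edges, stood at 3.37, 2.20 and 1.61 FPKM in control and at 58.0, 73.2 and 94.5 FPKM in DNCB. This was a log2 fold change of 4.78 ± 0.47 (edgeR adjusted p = 0.000431), or 27.4-fold. Cthrc1, a secreted protein of activated fibroblasts, was the lowest of the 10 in control skin at 1.09, 1.34 and 0.67 FPKM. In DNCB it reached 33.4, 40.2 and 27.1 FPKM, a log2 fold change of 4.82 ± 0.59 (edgeR adjusted p = 0.000706). These 3 genes lay at the 38.0th to 61.9th percentile of tested genes by mean FPKM in control and at the 93.7th to 98.7th in DNCB.

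The lysyl oxidases followed. Lox, the enzyme that oxidizes lysines of collagen and elastin so that fibres can crosslink, measured 4.24, 3.95 and 4.95 FPKM in control and 33.6, 37.9 and 40.0 FPKM in DNCB. The difference was 2.90 ± 0.48 on the log2 scale (edgeR adjusted p = 0.00195). Loxl2, which acts on the same kind of lysines and has basement membrane collagen among its substrates, measured 3.54, 3.50 and 3.56 FPKM in control and 21.5, 29.3 and 20.8 FPKM in DNCB. Its log2 fold change was 2.57 ± 0.41 (edgeR adjusted p = 0.00167). The control libraries were almost identical for Loxl2, with an SD of 0.0328 FPKM around 3.53.

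Thbs1, Postn and Fn1 were already well expressed in control skin. Thbs1, which encodes a platelet and fibroblast glycoprotein able to activate latent TGF-beta, measured 7.79, 4.89 and 9.68 FPKM in control and 33.4, 19.97 and 24.4 FPKM in DNCB. DNCB exceeded control by 1.62 ± 0.37 on the log2 scale (edgeR adjusted p = 0.00921). Platelet markers, set beside it because platelets carry thrombospondin-1, summed to 11.1 to 25.1 FPKM in control and 49.4 to 60.8 in DNCB, with Gp6 at 0 in all control and DNCB libraries and Gp9 at 0 in DNCB. Pf4, which averaged 21.98 FPKM over the 12 libraries, made up most of that sum. Of the 4 tested, Pf4 and Ppbp were called higher than in control, and Itga2b and Gp1bb were not called. The part of platelets in the Thbs1 values was not tested. Postn, which encodes periostin, a fibroblast matrix protein that ties tenascin-C to collagen, measured 30.5, 21.3 and 34.6 FPKM in control and 90.0, 93.6 and 78.8 FPKM in DNCB. The log2 fold change of 1.43 ± 0.45 passed (edgeR adjusted p = 0.0391). It was the only 1 of the 9 calls lost when single libraries were left out, with an adjusted p of 0.0523 to 0.139 without any 1 of the control or DNCB libraries, scMSC replicate 2 or scivMSC replicate 1, and it was also lost with no filter on low values. Fn1, which encodes fibronectin, the first scaffold of the wound matrix, measured 14.3, 8.54 and 21.02 FPKM in control and 38.0, 37.8 and 29.9 FPKM in DNCB. The groups did not overlap, but the spread of Fn1 in the other groups was wide, and the log2 fold change of 1.10 ± 0.63 did not pass (edgeR adjusted p = 0.236). With only the 6 control and DNCB libraries in the fit it was called.

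Acta2 and Tgfb1 differed with little spread. Acta2, whose product forms the stress fibres that mark a myofibroblast and is also the main actin of vessel walls, measured 21.4, 19.7 and 21.9 FPKM in control and 53.5, 54.9 and 55.0 FPKM in DNCB. Its log2 fold change was 1.19 ± 0.24 (edgeR adjusted p = 0.00527). Vascular smooth muscle and pericyte markers (10 genes) summed to 60.5 to 74.1 FPKM in control and 89.5 to 99.1 in DNCB. Of these 10, Higd1b and Mcam were called higher and Abcc9 lower (log2 fold changes of 1.85, 1.02 and −1.05), and Myh11 and Cnn1 stood at −0.08 and −0.26. The part of vessel wall cells and endothelium in the Acta2 values was not tested. Tgfb1, the ligand itself, measured 3.23, 3.31 and 4.37 FPKM in control and 10.7, 10.1 and 9.83 FPKM in DNCB. Its log2 fold change was 1.31 ± 0.17, the smallest standard error of the 10 (edgeR adjusted p = 0.000896). Leukocytes, platelets and fibroblasts all make this ligand, and the part of each in the Tgfb1 values was not tested.

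In DNCB skin that also received MSCs under the skin (scMSC), 8 of the 10 genes had every DNCB library above every scMSC library, where 17.1% of all genes tested did, and 6 of the 10 were called higher in DNCB, where 3.84% were. The median log2 fold change of DNCB against scMSC was 1.46 for the 10 genes and −0.02 for all genes tested. Leaving out scMSC replicate 2 cut the calls to 3 (Tnc, Spp1 and Tgfb1). Comparing DNCB with the combined route (scivMSC), 8 of the 10 genes again had no overlap, where 16.3% of all genes had every DNCB library higher, and 4 of the 10 were called, where 2.33% were. The median was 1.25, beside −0.02 over all genes. These calls fell to 2 (Tnc and Spp1) when DNCB replicate 1, DNCB replicate 2 or scivMSC replicate 1 was dropped, and to 2 with only the 6 libraries compared. Both comparisons use the same DNCB libraries, as does the comparison with control, so their values are given side by side and are not independent of each other.

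**Figure D2:**
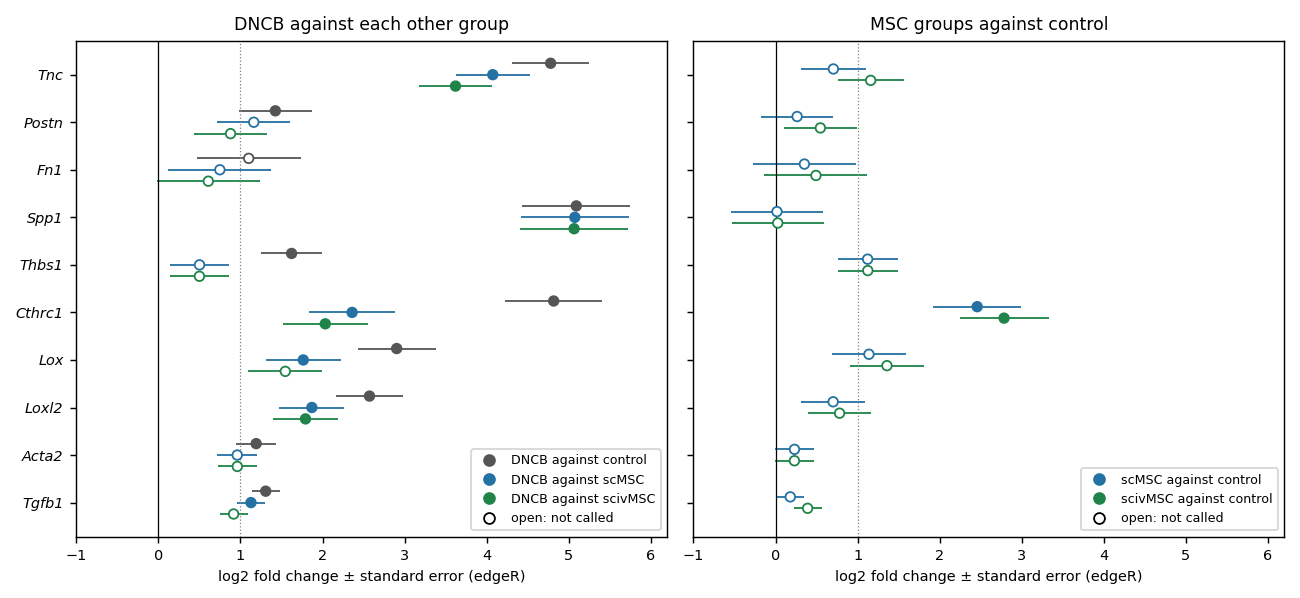
Log2 fold change with its standard error (edgeR, 3 libraries per group) for each gene, with DNCB against the other 3 groups on the left and the MSC groups against control on the right. Filled points were called and open points were not, and the dotted line marks a log2 fold change of 1. Spp1 and Tnc keep log2 fold changes of 3.62 or more in all 3 DNCB comparisons, and only Cthrc1 is filled on the right.

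Spp1 and Tnc were called in both comparisons, also when any 1 library was left out. Spp1 measured 5.28, 6.80 and 1.14 FPKM in scMSC and 3.13, 8.05 and 2.59 FPKM in scivMSC, so that the MSC libraries surrounded the control range of 3.29 to 4.36. DNCB exceeded scMSC by 5.07 ± 0.66 (edgeR adjusted p = 0.00199) and scivMSC by 5.07 ± 0.66 (edgeR adjusted p = 0.00398) on the log2 scale. Tnc measured 5.01, 5.19 and 2.90 FPKM in scMSC and 4.88, 10.04 and 3.54 FPKM in scivMSC. DNCB exceeded scMSC by 4.07 ± 0.45 (edgeR adjusted p = 0.00147) and scivMSC by 3.62 ± 0.44 (edgeR adjusted p = 0.00321). Neutrophil markers summed to 16.8 to 66.3 FPKM in scMSC and 36.0 to 181.7 in scivMSC, with 8 of the 10 tested called higher in DNCB than in scMSC and 7 than in scivMSC. Macrophage markers summed to 186.9 to 434.8 and 55.6 to 467.1, with 2 of 11 and 1 of 11 called higher in DNCB. The part of these cells in the Spp1 values was not tested.

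Loxl2 and Cthrc1 were also called in both comparisons. Loxl2 measured 9.41, 4.46 and 5.61 FPKM in scMSC and 7.79, 10.4 and 2.68 FPKM in scivMSC, all below the lowest DNCB library. DNCB exceeded the scMSC and scivMSC groups by 1.87 ± 0.40 (edgeR adjusted p = 0.0119) and 1.79 ± 0.40 (edgeR adjusted p = 0.0224). The call against scMSC was lost without scMSC replicate 2 (adjusted p = 0.0549), and that against scivMSC without DNCB replicate 1, DNCB replicate 2 or scivMSC replicate 1 (0.0564 to 0.0769). Cthrc1 measured 9.23, 5.90 and 4.23 FPKM in scMSC and 7.70, 14.7 and 2.55 FPKM in scivMSC. DNCB exceeded them by 2.36 ± 0.52 (edgeR adjusted p = 0.0146) and 2.03 ± 0.52 (edgeR adjusted p = 0.0370). Without DNCB replicate 2, scMSC replicate 2 or scMSC replicate 3 the call against scMSC was lost (0.0501 to 0.0584), and the call against scivMSC was lost without control replicate 1 or 2, any 1 of the DNCB libraries, scMSC replicate 2, or scivMSC replicate 1 or 3 (0.0503 to 0.124).

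Lox and Tgfb1 were called against scMSC and not against scivMSC, and the test between the 2 MSC groups passed for neither (edgeR adjusted p = 0.984 and 0.868). Lox measured 17.5, 6.78 and 8.42 FPKM in scMSC and 16.8, 17.8 and 4.06 FPKM in scivMSC. DNCB exceeded them by 1.77 ± 0.46 (edgeR adjusted p = 0.0287) and 1.55 ± 0.45 (edgeR adjusted p = 0.0625). The call against scMSC was lost without any 1 of the DNCB libraries, scMSC replicate 2 or scMSC replicate 3 (0.0607 to 0.109), and without scMSC replicate 1 the difference from scivMSC passed (0.0442). Tgfb1 measured 4.44, 4.11 and 5.21 FPKM in scMSC and 5.85, 6.54 and 3.82 FPKM in scivMSC. DNCB exceeded them by 1.13 ± 0.17 (edgeR adjusted p = 0.00293) and 0.92 ± 0.17 (edgeR adjusted p = 0.0116), the latter short of the 2-fold limit for a call.

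Acta2 measured 35.7, 27.2 and 19.8 FPKM in scMSC and 23.3, 40.5 and 20.2 FPKM in scivMSC, all below the DNCB libraries. The log2 differences were 0.96 ± 0.24 in each comparison (edgeR adjusted p = 0.0254 and 0.0352), which passed the test and missed the 2-fold limit. Without scMSC replicate 1 Acta2 was called against scMSC, and without scivMSC replicate 2 it was called against scivMSC, as was Tgfb1. The smooth muscle and pericyte sum was 47.2 to 68.6 FPKM in scMSC and 58.0 to 69.5 in scivMSC, below the DNCB range.

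Postn, Fn1 and Thbs1 did not pass in either comparison. Postn measured 67.7, 27.6 and 21.4 FPKM in scMSC and 53.6, 70.0 and 20.6 FPKM in scivMSC, with log2 differences from DNCB of 1.16 ± 0.45 (edgeR adjusted p = 0.124) and 0.88 ± 0.44 (edgeR adjusted p = 0.274). Without scMSC replicate 1 the former passed (0.0219). Fn1 measured 36.9, 9.23 and 16.9 FPKM in scMSC and 33.4, 32.5 and 4.57 FPKM in scivMSC, ranges that reach into the DNCB libraries. Its log2 differences from DNCB were 0.75 ± 0.63 and 0.61 ± 0.63 (edgeR adjusted p = 0.525 and 0.637). Thbs1 measured 20.4, 23.5 and 9.67 FPKM in scMSC and 21.3, 22.4 and 11.4 FPKM in scivMSC and overlapped DNCB in both. Its log2 differences from DNCB were 0.50 ± 0.36 in each (edgeR adjusted p = 0.446 and 0.468).

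Against control, 1 of the 10 genes was called in each MSC group, Cthrc1, where 5.12% of all genes tested were called higher in scMSC and 3.50% higher in scivMSC. Every MSC library was above every control library for Cthrc1, with log2 fold changes of 2.46 ± 0.54 in scMSC (edgeR adjusted p = 0.0105) and 2.78 ± 0.54 in scivMSC (edgeR adjusted p = 0.00968). The fit on only the 6 libraries compared did not call it in scivMSC. The medians over the 10 genes were 0.53 and 0.66, beside 0.00 and 0.04 over all genes tested. Non-overlap with all MSC libraries above control was seen for Cthrc1, Lox and Loxl2 in scMSC and for Cthrc1, Tnc and Thbs1 in scivMSC, 3 of 10 in each, where 25.9% and 24.3% of all genes had it, so those shares are near the background. Thbs1 stood at 1.12 ± 0.37 in both groups (edgeR adjusted p = 0.0557 and 0.0684), Lox at 1.14 ± 0.45 and 1.36 ± 0.45 (0.106 and 0.0734), and Tnc at 0.70 ± 0.40 and 1.16 ± 0.40 (0.256 and 0.0857). Loxl2 stood at 0.70 ± 0.39 and 0.78 ± 0.39 (edgeR adjusted p = 0.242 and 0.222), Fn1 at 0.35 ± 0.63 and 0.49 ± 0.63 (0.753 and 0.675), and Postn at 0.26 ± 0.44 and 0.55 ± 0.44 (0.735 and 0.473). Acta2 stood at 0.23 ± 0.24 in both (edgeR adjusted p = 0.555 and 0.592), Tgfb1 at 0.18 ± 0.17 and 0.39 ± 0.17 (0.512 and 0.161), and Spp1 at 0.02 ± 0.56 and 0.03 ± 0.56 (0.991 and 0.984), with signs that changed under several alternatives. The signs for Postn and Fn1 in scMSC changed without replicate 1 of that group, and that for Acta2 in scivMSC without its replicate 2. Without scivMSC replicate 3, 4 genes were called in scivMSC (Cthrc1, Lox, Loxl2 and Thbs1) and 2 in scMSC (Cthrc1 and Lox). Without scMSC replicate 3, 2 were called in each, Cthrc1 and Thbs1.

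The genes differed in how much of the DNCB difference was absent in the MSC groups. As a share of each gene's log2 difference between DNCB and control, the scMSC group lay closer to control by 99.7% for Spp1, 86.3% for Tgfb1, 85.3% for Tnc, 81.6% for Postn and 80.6% for Acta2. The shares were 72.7% for Loxl2, 68.1% for Fn1, 60.8% for Lox, 49.0% for Cthrc1 and 30.9% for Thbs1. In scivMSC they were 99.5% for Spp1, 80.7% for Acta2, 75.8% for Tnc, 70.1% for Tgfb1, 69.7% for Loxl2, 61.7% for Postn, 55.3% for Fn1, 53.3% for Lox, 42.2% for Cthrc1 and 30.8% for Thbs1. These shares carry no test, and some rest on 1 library. In scMSC the share of Thbs1 was 12.1% without replicate 3 and 52.1% without replicate 2 of that group, that of Postn 124.6% without replicate 1, and that of Fn1 40.5% without replicate 2 and 126.4% without replicate 1. In scivMSC, without replicate 3 of that group, the shares of Thbs1, Postn and Fn1 were 16.5%, 37.5% and 10.8%, and without replicate 1 that of Fn1 was 86.1%. Without DNCB replicate 1 the share of Thbs1 was 19.9% in scMSC and 19.8% in scivMSC. The shares of Spp1 and Tnc stayed between 90.7 and 112.1% and between 70.7 and 90.8% with any 1 library left out.

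Between the MSC groups none of the 10 genes was called, and none reached an unadjusted p below 0.05 (edgeR). DESeq2 and limma also called none of them. Over all genes tested edgeR called 0.00457% (1 gene) and DESeq2 114 genes. Limma called 2 on log2(FPKM + 0.1) and 1 on log2(FPKM + 1). The log2 difference of scMSC from scivMSC was −0.45 for Tnc, −0.33 for Cthrc1, −0.28 for Postn, −0.22 for Lox, −0.21 for Tgfb1, −0.14 for Fn1, −0.08 for Loxl2, −0.01 for Spp1 and within 0.01 of 0 for Thbs1 and Acta2, with standard errors of 0.17 to 0.63. Apart from Tgfb1, each of these signs changed when some single library was left out. Differences of the size of those standard errors could not be detected with 3 libraries per group.

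**Figure D3:**
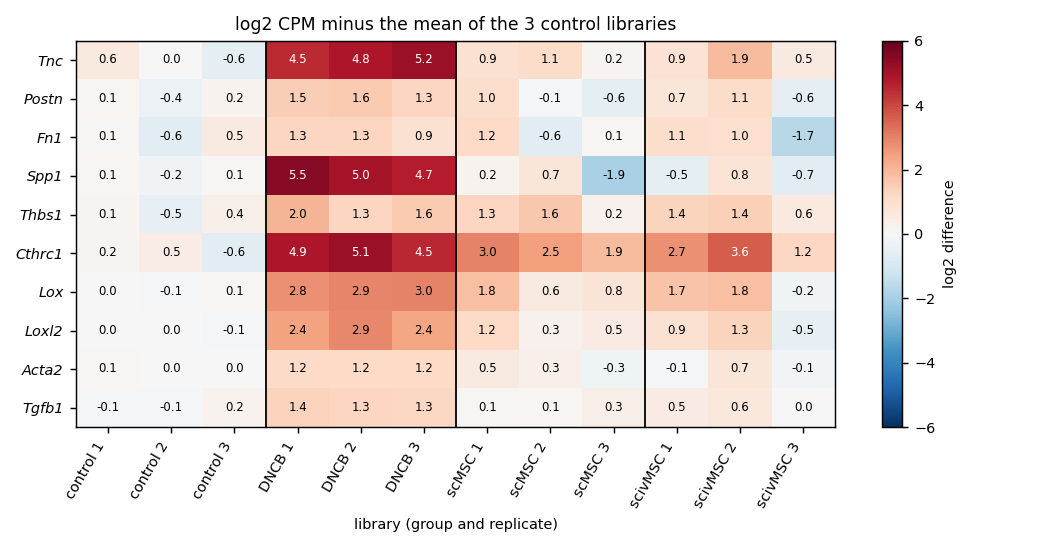
Log2 CPM (counts scaled to library size, TMM-normalized) of each gene minus the mean of the 3 control libraries, for the 12 libraries, with red above and blue below control. Each DNCB column is above control for all 10 genes, and scivMSC replicate 3 is above the control mean for 3 of 10.

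Variation among libraries was largest in the MSC groups. The ratio of the highest to the lowest library had a median over the 10 genes of 1.34 among DNCB and 1.49 among control libraries. Its median was 2.31 among scMSC and 3.25 among scivMSC libraries, reaching 7.31 for Fn1 in scivMSC. Within scivMSC, replicate 2 was highest for 9 of the 10 genes and replicate 3 lowest for all 10. Within scMSC, replicate 1 was highest for 6 genes and replicate 3 lowest for 6. The median log2 difference from the control mean was 1.96 to 2.22 in the DNCB libraries, 1.12, 0.43 and 0.21 in scMSC replicates 1 to 3, and 0.91, 1.21 and −0.18 in scivMSC replicates 1 to 3. Resting fibroblast markers summed to 1721, 655 and 894 FPKM in scMSC replicates 1 to 3 and to 1663, 1740 and 394 in scivMSC replicates 1 to 3, with the highest and lowest libraries the same as for the 10 genes in scivMSC and replicates 2 and 3 in the opposite order in scMSC. That sum includes Col1a1, Col3a1 and Col1a2, themselves matrix genes, so it does not measure fibroblast content alone. The part of fibroblasts in the library differences was not tested.

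The pattern of each gene over the 12 libraries was set beside the 14376 genes that averaged 1 FPKM or more, and the most alike by Pearson's r of log2 CPM were noted. The 12 points share 4 groups, so a high r mainly records the same order of groups. For Tnc this was Impdh1 (0.988), for Spp1 Ifitm1 (0.986) and Has2 (0.981), and for Cthrc1 Mdk (0.990) and Adamts9 (0.981). Loxl2 was most like C1qtnf6 and Cdh11 (0.992 and 0.991), and Lox most like Mmp14 and Ripk1 (0.984 and 0.981). Fn1 paired with Thbs3 and C1s2 (0.983 and 0.968), Postn with Angpt2 and Col6a2 (0.959 for each), and Thbs1 with Prrg4 and Cemip2 (0.942 and 0.937). Acta2 paired with Lima1 and Dclk1 (0.968 and 0.963), and Tgfb1 with Prg4 and Ddost (0.973 for each).

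Related gene lists put the 10 genes in the setting of their pathway, with lists counted as called higher or lower in DNCB than in control. Over all genes tested 7.57% were called lower in DNCB than in control, 4.66% lower than in scMSC and 3.13% lower than in scivMSC, beside the shares called higher given above. Of 11 TGF-beta ligand, latency and activation genes, 1 was called higher and 0 lower, with a median log2 fold change of 0.15. The one was Itgb8, an integrin chain that releases active TGF-beta, at 1.24 ± 0.25 FPKM (SD, n = 3) in control and 2.90 ± 0.50 in DNCB (log2 fold change 1.05, edgeR adjusted p = 0.00901). Of 15 receptor and Smad signalling genes 2 were called higher and 0 lower, with a median of 0.57. These were Tgif1 (1.28, edgeR adjusted p = 0.000933) and Skil (1.14, edgeR adjusted p = 0.000674), both known as corepressors of Smad transcription. Neither was called against the MSC groups: Tgif1 differed from scMSC by 0.60 and from scivMSC by 0.36, and Skil by 0.20 from each. Other genes of these lists were called there, and are named here after their values were seen. Of the ligand list, Tgfb3 and Nrros were called higher in DNCB than in scMSC (1.19 and 1.58), and none was called against scivMSC (edgeR, lowest adjusted p = 0.0294). Of the receptor and Smad list, Eng was called higher in DNCB than in scMSC (1.07) and Smad7 and Bambi lower (−1.50 and −3.45), and Bambi was lower than in scivMSC (−2.11). Bambi, a decoy receptor of the family, measured 1.28 ± 0.71 FPKM in control and 1.43 ± 0.40 in DNCB, and 15.2 ± 6.15 and 6.08 ± 1.94 in the scMSC and scivMSC groups (SD, n = 3).

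Among 9 known TGF-beta target genes 4 were called higher and 1 lower, with a median of 0.96. Adam12, a metalloprotease of activated mesenchyme, was called in all 3 comparisons, 4.79 on the log2 scale over control, 3.12 over scMSC and 2.47 over scivMSC (edgeR adjusted p = 0.00118, 0.00956 and 0.0337). Pmepa1, a feedback inhibitor of TGF-beta signalling, was called against control alone (1.90, edgeR adjusted p = 0.000917). Ccn2, which encodes connective tissue growth factor, went the other way: its mean level in DNCB was 10.4 ± 1.57 FPKM (SD, n = 3), below the 22.6 ± 0.50 of control, the 25.9 ± 15.9 of scMSC and the 26.4 ± 7.20 of scivMSC. It was called lower in DNCB than in each other group, with log2 fold changes of −1.31, −1.33 and −1.35 (edgeR adjusted p = 0.0172, 0.0277 and 0.0361).

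The contractile list was split. Of 19 genes tested 4 were called higher and 4 lower in DNCB than in control, with a median of 0.40. Cald1, an actin-binding regulator of contraction, rose with a log2 fold change of 1.64 (edgeR adjusted p = 0.000864), Myh9, non-muscle myosin, with 1.28 (0.00181), and the actin crosslinker Flna with 1.25 (0.00388). Lmod1, an actin nucleator of smooth muscle, fell with −2.88 (edgeR adjusted p = 0.000340), and Tpm1 and Tpm2, tropomyosins that skeletal muscle also expresses, fell with −2.30 and −2.23 (0.00286 and 0.00367). The skeletal muscle sum was lower in DNCB than in control, as given above, and its part in these values was not tested. Against scMSC none of the 19 was called (edgeR), and against scivMSC 1 was, Lmod1 at −1.64 (edgeR adjusted p = 0.00551). Against scMSC, Lmod1 stood at −0.997 and Cald1 at 0.85, with edgeR adjusted p of 0.0220 and 0.0232. The lowest edgeR adjusted p of the list there was 0.00482 and the largest log2 fold change 1.81, in different genes.

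The matrix lists moved mostly one way. Of 35 matricellular and microfibril genes 15 were called higher and 1 lower than in control, with a median of 1.38, and against scMSC and scivMSC the counts were 12 and 10 higher and 1 lower in each. Tnn, tenascin-N, had log2 fold changes of 4.69, 6.14 and 4.30 against control, scMSC and scivMSC, and Ccn4, a Wnt-induced matricellular protein, of 3.79, 3.47 and 3.14. Has2, a hyaluronan synthase, had 2.80, 2.78 and 2.45, and all 9 of these differences were called. Ccn2 was the 1 lower gene in each comparison. Of 21 collagen maturation and crosslinking genes 7 were called higher and 1 lower than in control, 8 higher than in scMSC and 3 higher than in scivMSC. Serpinh1, the collagen chaperone, measured 23.98 ± 11.5 FPKM in the control libraries and 168.4 ± 11.7 in DNCB (SD, n = 3). In scMSC it measured 65.4 ± 18.7 and in scivMSC 82.3 ± 39.6. It was called against control (2.61, edgeR adjusted p = 0.00127) and scMSC (1.35, 0.0352), and stood at 1.04 against scivMSC (0.112). Bmp1, the procollagen C-proteinase, was called against control (1.82, edgeR adjusted p = 0.000340) and scMSC (1.19, 0.00222), and Loxl3, another lysyl oxidase, against control alone (2.03, 0.0370). Tgm2, a transglutaminase, was lower in DNCB than in control (−1.56, edgeR adjusted p = 0.00290) and stood at 0.13 and 0.39 against the MSC groups.

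Of 17 receptors of these proteins 5 were called higher and 0 lower than in control, 4 higher than in scMSC and 2 higher than in scivMSC. Cd44, the receptor of hyaluronan and osteopontin, was called in all 3 comparisons with log2 fold changes of 2.499, 1.46 and 1.63. Itga5, the fibronectin receptor chain, had 1.91, 1.58 and 1.37, and Itgb3, which pairs with the alpha v chain to bind osteopontin and other matrix proteins, had 1.72, 1.31 and 1.26, of which the first pair was called for each. Of 19 activated fibroblast genes 13 were called higher and 1 lower than in control, with a median of 1.60, 9 higher than in scMSC and 7 higher than in scivMSC. Col12a1, a collagen found on fibril surfaces, had values of 4.87, 3.50 and 3.38 and Timp1, a metalloprotease inhibitor, of 4.398, 4.72 and 3.56, each called. Scx, a tendon transcription factor, was the 1 lower gene against control (−1.26, edgeR adjusted p = 0.0193). The lists share genes, with Adam12, Ccn2 and Skil each in more than 1, so their counts do not add up. Markers of stressed keratinocytes, a list that includes S100a8 and S100a9, which neutrophils also express, were called higher for 8 of 8 genes against control, 7 of 8 against scMSC and 2 of 8 against scivMSC. The 2 called against scivMSC were S100a8 and S100a9 themselves (log2 fold changes of 4.64 and 5.17), and none of the keratins in the list was called there.

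**Figure D4:**
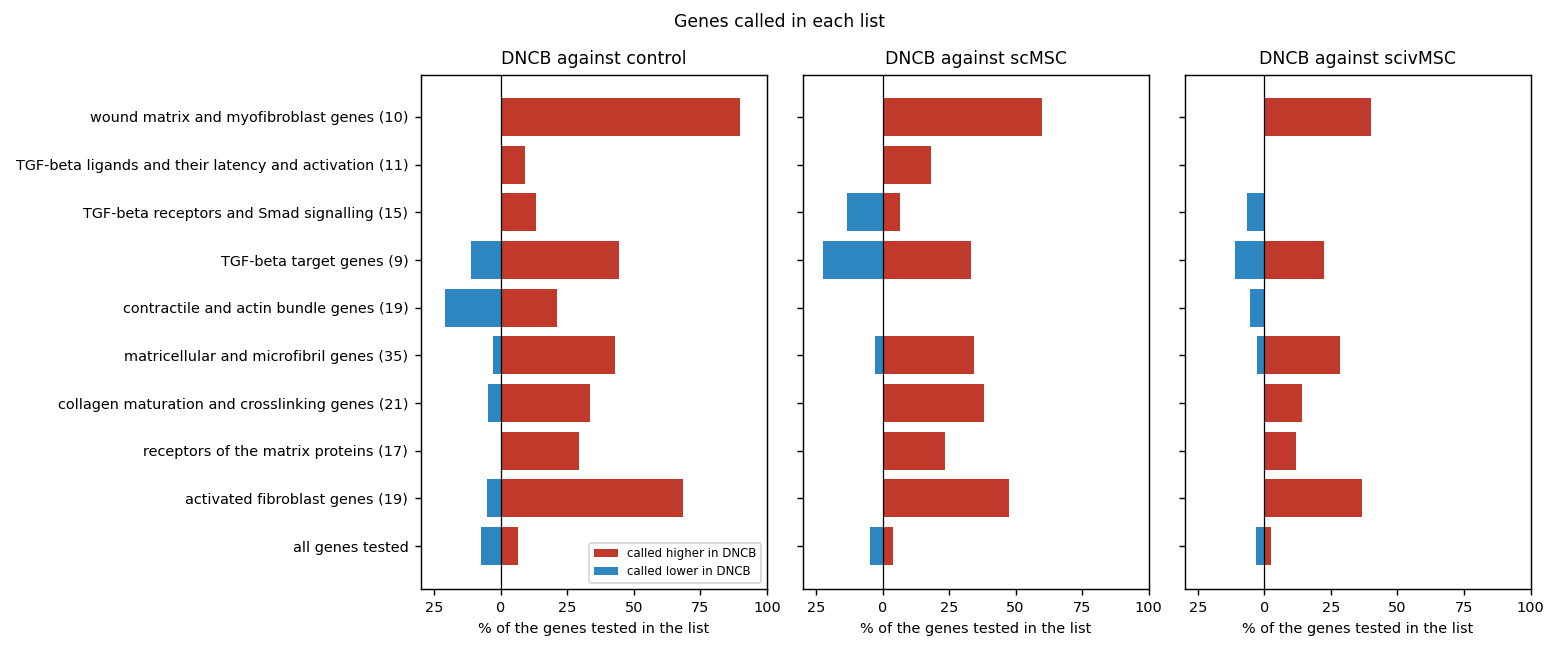
Share of each list's tested genes called higher (red, to the right) or lower (blue, to the left) in DNCB than in control, scMSC and scivMSC, with the number tested in parentheses and all 21890 genes as the last bar. The 10 genes have 9, 6 and 4 called higher, and the contractile list alone has equal calls in both directions against control (4 and 4).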

How the data were processed

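Dorsal skin RNA of 12 mice, 3 per group, was sequenced, each mouse giving 1 library. The deposited table held FPKM values (fragments per kilobase of transcript, scaled to library size) and whole-number counts for 36400 genes, both made by the authors. The submitters' processing notes name Bowtie 0.12.2, HISAT2 2.0 and StringTie 1.3.0, and the strand setting of the counting is not given in the sources used here. Among low counts, 38.9 to 41.2% were multiples of 4, so the counts may not be single fragments and precision may be overstated. Counts per library summed to between 63877153 and 75134001. The gene coordinates in the table are those of GRCm38, whereas the notes list another build.

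Levels are FPKM as deposited. Tests used edgeR 4.0.16 in R 4.3.3: TMM normalization, the quasi-likelihood F-test, 1 model of the 4 groups, and Benjamini-Hochberg adjustment over the 21890 genes whose mean reached 0.1 FPKM. A gene was called at an adjusted p below 0.05 and a log2 fold change beyond 1 in either direction. Standard errors were computed as the log2 fold change divided by the square root of F. The fit was tested on simulated data. Python 3.11.15 was used for tables and figures.

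The 10 genes and all gene lists were chosen with earlier results of these data known. The 10 genes were named in each comparison. From each related list, up to 3 genes per direction were named, those with the largest change from control among called genes averaging 1 FPKM or more. A few genes that these rules name are not reported here. Marker lists were summarised as counts and summed FPKM. The alternatives were DESeq2 1.42.0, DESeq2 size factors, library size alone, limma 3.58.1 on log2(FPKM + 0.1) and log2(FPKM + 1), no filter on low values, only the 6 libraries compared, a replicate block, counts divided by 4, the adjusted p alone, the study's own limits, and leaving out each library. Promoter windows came from RefSeq (GRCm38.p6), which held 5 of the 10 genes.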

Additional observations from a re-analysis of the deposited data

How the results depend on the processing

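In the 3 comparisons of DNCB with another group, the 630 fold changes of the 10 genes under the alternatives all kept their sign, and 587 kept their side of the threshold, with 31 losing and 12 gaining a call. The 630 are not separate checks, because the fits reuse the same libraries. Fits that left out a library of a group not compared kept both compared groups whole and could hardly change a sign. Leaving out 1 library at a time moved the number of genes called from 9 to between 8 and 9 against control, from 6 to between 3 and 8 against scMSC, from 4 to between 2 and 6 against scivMSC, from 1 to between 1 and 2 for scMSC against control, and from 1 to between 1 and 4 for scivMSC against control. With only the 6 libraries compared, 2 were called in DNCB against scivMSC and 0 in scivMSC against control, where fewer samples estimate the spread. For scMSC against control, library size alone, DESeq2, limma with either pseudocount and counts divided by 4 each gave 2, and the study's own limits (fold over 2, p under 0.5) gave 3. For scivMSC against control, library size alone, DESeq2 and the study's own limits each gave 4, limma on log2(FPKM + 0.1) gave 3 and limma on log2(FPKM + 1) gave 2. The cause was not tested. Over all genes, the adjusted p alone passed 5541 against control in place of 3098, DESeq2 called 114 in scMSC against scivMSC in place of 1, DESeq2 called 1883 in DNCB against scivMSC in place of 1195, and leaving out 1 library gave 476 to 1442 there.

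The differences that changed sign were none of them called. Spp1 in scMSC against control became −0.167 and −0.0641 with limma and −0.0123 with no filter, and in scivMSC against control −0.0141 with DESeq2 size factors and −0.0150 with DESeq2. In scMSC against scivMSC, limma gave 0.0685 and 0.0384 for Fn1 and 0.0328 and 0.00697 for Loxl2, DESeq2 size factors and DESeq2 gave 0.0143 and 0.0157 for Spp1 and 0.0191 and 0.0192 for Thbs1, and Acta2 became −0.0236 with library size alone, −0.00954 with no filter and −0.00500 with only the 6 libraries. Leaving out 1 library gave ranges across 0 for scMSC against control of −0.35 to 0.56 (Postn), −0.29 to 0.63 (Fn1) and −0.56 to 0.48 (Spp1), and for scivMSC against control of −0.62 to 0.26 (Spp1) and −0.10 to 0.36 (Acta2). For scMSC against scivMSC such ranges were −0.73 to 0.061 (Tnc), −0.90 to 0.069 (Postn), −0.78 to 0.20 (Fn1), −0.55 to 0.63 (Spp1), −0.33 to 0.30 (Thbs1), −0.69 to 0.072 (Lox), −0.48 to 0.31 (Loxl2), −0.77 to 0.34 (Cthrc1) and −0.19 to 0.33 (Acta2), so that no direction between the routes is given for these genes.

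The labels do not state that replicate numbers pair the samples. Deviations of libraries with the same number correlated at −0.358 to 0.257, above 0.1 in 3 of 18 pairs, and those with other numbers at −0.294 to 0.26. Deviations within a group of 3 are tied to each other, so these values cannot exclude a pairing. With the replicate number as a block 9, 6, 4, 1, 1 and 0 genes were called in the 6 comparisons, as without it, and over all genes 2866 in place of 3098 against control. Under the block Spp1 became −0.263 in scMSC and −0.165 in scivMSC against control, and Loxl2 0.0141 in scMSC against scivMSC.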
